A study of Clytia hemisphaerica and Astroides calycularis and Pocillopora acuta with 16 samples.

Results

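The genes described here are 5 diagnostic markers of the gastroderm and of the digestive filaments in coral planulae, the ciliated larvae that swim before they settle by the aboral end. They were taken by identifier, and they make up 5 of the 48252 gene models in the count tables of both corals, and 5 of 67007 in the whole series. The 2 Astroides members are OIT3-like12 (STRG.21702) and Nkx2-8-like (STRG.10304), both listed by the study as digestive filament markers. The 3 Pocillopora members are OIT3-like12 (XP_027046940), also a digestive filament marker, and the gastroderm markers COA-like2 (XP_027059036) and ZF-C3H11 (XP_027055412). The study gave these names from single-cell clusters, and the counts used here come from bulk RNA of whole ends, so the class of each marker is the study's and no cell was resolved.

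Bulk RNA-seq was made from pooled aboral and pooled oral ends and, in Astroides, also from pooled whole larvae (uncut), with 2 libraries in each of the 5 coral groups. Astroides calycularis larvae were released by wild colonies and carry no algal symbionts. Pocillopora acuta larvae host dinoflagellate symbionts and came from the parent colonies C3 and C5, which the study describes as phenotypes of 1 genotype, so that the aboral and the oral group each hold 1 pool per colony. No larva received a treatment, and all larvae were cut by hand with scissors or left whole. By the study's methods every Pocillopora pool held fewer cut pieces than any Astroides pool of ends, so its levels rest on few larvae. The Pocillopora oral pools held fewer cut pieces than the aboral ones. With 2 pools in a group, a p-value of the main Astroides fit rests on the spread between pools of a group. The Pocillopora fit takes out the colony, so its p-values rest on how far the difference between the ends varied between the 2 colonies. In both fits the spread was shared across genes. In bulk RNA fewer cells of a type cannot be told apart from less RNA per cell. Total counts ran from 23146999 to 26980344 in the 6 Astroides libraries and from 20256336 to 24838448 in the 4 Pocillopora libraries. Levels are given as CPM, counts per 1000000 counts of the library, and they are not corrected for gene length, so they compare libraries and not genes.

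The gastroderm is the inner cell layer of cnidarians and takes up and digests food. In corals and sea anemones it folds into mesenteries, whose free edges carry the digestive filaments, thickened strips rich in gland cells that secrete digestive enzymes. The mouth of the polyp forms at the oral end of the planula.

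All 5 members had lower levels in aboral than in oral ends, by 1.65-fold to 4.14-fold. In edgeR's quasi-likelihood test, with Benjamini-Hochberg adjustment over all genes tested in the species, each passed the threshold of 0.05. The same test called 3.51% of all Astroides genes and 4.22% of all Pocillopora genes lower in aboral ends. Since the members were chosen with earlier results of these data known, the count of 5 is a description. In all 5, every oral library lay above every aboral library, which held for 23.4% of the genes tested in Astroides and for 19.4% in Pocillopora.

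**Figure D1:**
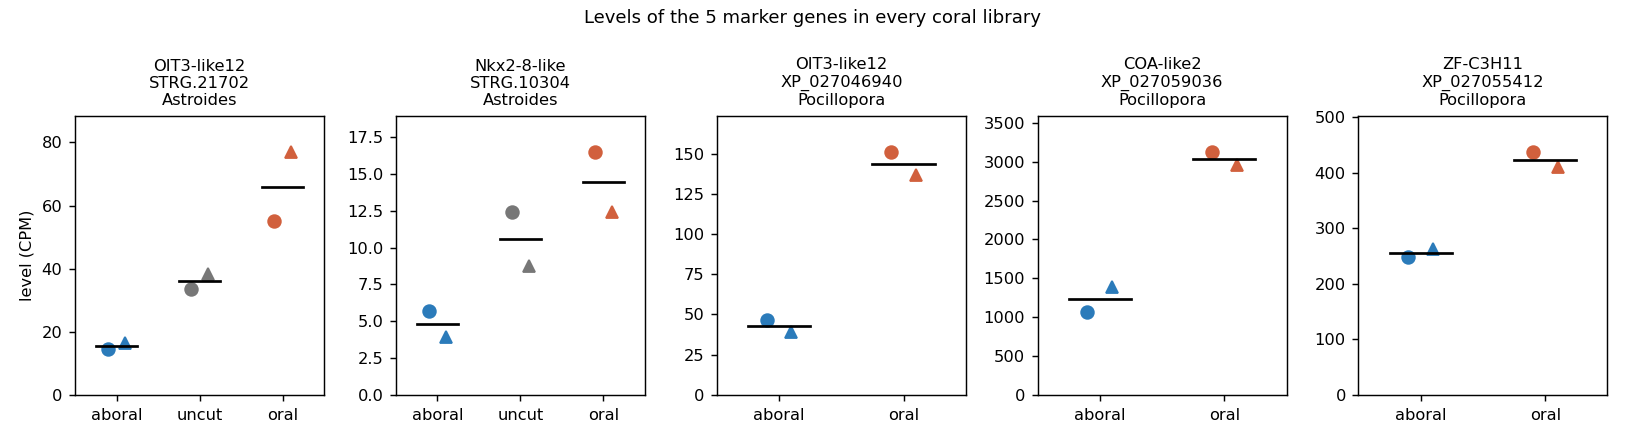
Level of each of the 5 members in every coral library, in CPM on linear axes that start at 0 and differ between panels. Circles are replicate 1 (colony C3 in Pocillopora), triangles replicate 2 (colony C5), and bars are the means of 2 libraries. In all 5 panels both oral libraries lie above both aboral libraries.

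OIT3-like12 is named after OIT3, in vertebrates a liver protein that is secreted and carries a zona pellucida domain, a module that lets extracellular proteins polymerise. In Astroides (STRG.21702) its level was 14.6 and 16.5 CPM in the aboral libraries, 33.6 and 38.5 CPM in the uncut libraries, and 55.0 and 76.8 CPM in the oral libraries. These came from 394 and 445 counts in aboral, 777 and 970 in uncut and 1312 and 2067 in oral libraries. The 3 groups did not overlap, and the uncut larvae lay between the ends. Whole larvae hold both ends, so a level between them is what a mixture gives for any gene that differs. The share of all genes with such an order was not counted. The group means were 15.6 ± 1.35 CPM in aboral, 36.0 ± 3.46 CPM in uncut and 65.9 ± 15.4 CPM in oral libraries (SD, n = 2 each). The fitted difference of aboral against oral was -2.05 ± 0.19 on the log2 scale (SE), a 4.14-fold lower level with an adjusted p of 0.00163 in edgeR. A difference at least this low was found for 1.33% of the Astroides genes tested.

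Neither step, from aboral to uncut nor from uncut to oral, passed the test for OIT3-like12 in the main edgeR fit, which has no replicate block. Uncut against aboral, STRG.21702 differed by 1.20 ± 0.18 on the log2 scale, with an adjusted p of 0.0606 (edgeR), where 0.452% of all genes were called higher in uncut larvae. Uncut against oral, STRG.21702 differed by -0.85 ± 0.18, with an adjusted p of 0.125. With the replicate number as a block in edgeR the log2 differences of STRG.21702 were 1.20 and -0.84, and both passed, with adjusted p of 0.00615 and 0.0127. Over the 12 alternatives, run in edgeR or DESeq2, the lowest adjusted p was 4.62e-05 for uncut against aboral and 0.00752 for uncut against oral. Each step thus also passed in an alternative without the block. Against the mean of the 2 ends the difference of STRG.21702 was 0.17 ± 0.16, with an adjusted p of 0.91 and a 95% interval from -0.20 to 0.55, and 0.221% of all genes were called in either direction. The mean of the 2 ends was taken on the log2 scale. A mixture of the ends lies above such a mean, the more so the more the ends differ. Calls of higher levels against it can thus include genes at the level of a mixture. On a scale of mean CPM with oral at 0 and aboral at 1, the uncut larvae stood at 0.594 for STRG.21702.

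In Pocillopora OIT3-like12 (XP_027046940) showed the same order of the ends. Its level was 46.6 CPM in the aboral and 150.7 CPM in the oral library of colony C3, and 38.9 CPM and 136.8 CPM in those of colony C5. Both oral libraries lay far above both aboral ones, and within each end the C5 library was the lower. The means were 42.8 ± 5.46 CPM in aboral and 143.8 ± 9.85 CPM in oral ends (SD, n = 2 each), from 908 to 3053 counts per library. The fitted difference of XP_027046940 was -1.74 ± 0.12 on the log2 scale, 3.35-fold lower in aboral ends, with an adjusted p of 0.00637 in edgeR. The oral level of XP_027046940 was 3.23 times the aboral level within colony C3 and 3.52 times within colony C5.

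The OIT3-like12 pair was the one marker pair with members in both corals, and its aboral against oral change was compared directly. The species by end interaction in edgeR was fitted on 393 ortholog pairs given by the study, with adjustment over these pairs. The Astroides change minus the Pocillopora change was -0.33 ± 0.34 on the log2 scale, with an adjusted p of 0.484. Its 95% interval ran from -1.11 to 0.46, so differences of up to about that size in either direction were not separated from the spread. In this fit 43.3% of the pairs were called different, and the pairs come from lists that the study drew partly from these libraries, so that share is not a share of all orthologs.

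Nkx2-8-like is named after Nkx2-8, a homeobox transcription factor of the NK-2 family, which in animals includes regulators of gut and foregut organs. Its Astroides gene (STRG.10304) was at 5.67 and 3.93 CPM in the aboral libraries, 12.4 and 8.72 CPM in the uncut libraries, and 16.5 and 12.4 CPM in the oral libraries. The counts were between 106 and 392 per library, the fewest among the members. The aboral libraries were below all others, while the higher uncut library, at 12.44 CPM, was just above the lower oral library, at 12.38 CPM. Means were 4.80 ± 1.23 CPM in aboral, 10.6 ± 2.63 CPM in uncut and 14.4 ± 2.88 CPM in oral libraries (SD, n = 2 each).

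Aboral against oral, Nkx2-8-like (STRG.10304) differed by -1.55 ± 0.29 on the log2 scale, a 2.94-fold lower level with an adjusted p of 0.0257 in edgeR. With the replicate number as a block in edgeR, which keeps the pairing of the ends, it differed by -1.56 ± 0.16, with an adjusted p of 0.00108. In the fit without the block, the call was lost without aboral replicate 2, at -1.34, and without oral replicate 1, at -1.33. Over all 13 alternatives the adjusted p of STRG.10304 ranged from 6.49e-05 to 0.143. Uncut against aboral, STRG.10304 differed by 1.12 ± 0.29, with an adjusted p of 0.198, which became 0.0166 with the replicate number as a block in edgeR. Uncut against oral, it differed by -0.43 ± 0.28, with an adjusted p of 0.722 (edgeR), where 0.0706% of all genes were called lower in uncut larvae. Without the block, then, neither neighbour in this order of levels was separated by the test. Against the mean of the ends STRG.10304 differed by 0.34, with an adjusted p of 0.902, and the uncut larvae stood at 0.398 between oral at 0 and aboral at 1.

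The Astroides members differed in which replicate was the higher. Replicate 2 had more OIT3-like12 than replicate 1 in aboral, uncut and oral libraries alike, and replicate 1 had more Nkx2-8-like in all 3. Within replicates, the oral level of STRG.21702 was 3.77 times the aboral level in replicate 1 and 4.65 times in replicate 2. For STRG.10304 the same ratios were 2.90 and 3.15, which are closer to each other than the single levels are.

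The Pocillopora gene given as the counterpart of Nkx2-8-like (XP_027038915) is not a member and did not show the oral bias. It was at 59.0 and 57.5 CPM in aboral ends of colonies C3 and C5, and at 45.6 and 52.5 CPM in oral ends. The aboral values were the higher ones in both colonies, and the difference of XP_027038915 was 0.26 ± 0.13 on the log2 scale, with an adjusted p of 0.271 in edgeR. The difference between the corals passed the test, as did 43.3% of the ortholog pairs in that fit. The Astroides change of Nkx2-8-like minus the Pocillopora change was -1.84 ± 0.41, with an adjusted p of 0.00697 over the 393 pairs and a 95% interval from -2.78 to -0.91. Its adjusted p stayed between 0.000157 and 0.0404 under the 12 alternatives run for it.

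COA-like2 (XP_027059036) had the most counts of any member, with 26459 and 32471 in the aboral and 63166 and 64115 in the oral libraries. This gave 1065 CPM in the aboral and 3118 CPM in the oral library of colony C3, and 1391 CPM and 2959 CPM in those of colony C5. The ends were well apart in both colonies, and the colony with the lower aboral level had the higher oral level. The means were 1228 ± 230 CPM in aboral and 3039 ± 113 CPM in oral ends (SD, n = 2 each). The difference of XP_027059036 was -1.31 ± 0.18 on the log2 scale, 2.48-fold lower in aboral ends, with an adjusted p of 0.0244 in edgeR. The oral to aboral ratio of XP_027059036 was 2.93 in colony C3 and 2.13 in colony C5.

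ZF-C3H11 (XP_027055412) is named for its CCCH zinc fingers, which in many animal proteins bind RNA. Of the 5 members it had the smallest difference between the ends. Its level was 248.3 CPM in the aboral and 436.8 CPM in the oral library of colony C3, and 262.1 CPM and 410.0 CPM in those of colony C5. Libraries of the same end were close to each other and the ends did not overlap, with means of 255 ± 9.76 CPM in aboral and 423 ± 18.9 CPM in oral ends (SD, n = 2 each). The difference of XP_027055412 was -0.72 ± 0.14 on the log2 scale, 1.65-fold lower, with an adjusted p of 0.0434 in edgeR. This was near the threshold, and with size factors of the DESeq2 type (RLE) in place of TMM factors the adjusted p was 0.0511. The oral to aboral ratio of XP_027055412 was 1.76 in colony C3 and 1.56 in colony C5.

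The calls for the 3 Pocillopora members rested on the colony block. Without it the log2 differences were nearly the same, but the adjusted p was 0.252 for XP_027046940, 0.317 for XP_027059036 and 0.371 for XP_027055412, and edgeR called 0 genes in either direction. Without the block 1587 of 17164 genes had an unadjusted p under 0.05, and DESeq2 called 706. The fit with the block had 1 residual degree of freedom, with the spread shared across genes.

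The study's list holds further gastroderm markers that are not members. In Pocillopora, Testican2-like (XP_027036617), named after a proteoglycan of the extracellular matrix, was at 414 and 565 CPM in aboral and 664 and 977 CPM in oral ends of colonies C3 and C5. Its difference was -0.73 ± 0.13 on the log2 scale, with an adjusted p of 0.0373 in edgeR, so that all 3 gastroderm markers were called lower in Pocillopora aboral ends. In Astroides 0 of these 3 were called by edgeR and 0 by DESeq2, and 1 of them had an unadjusted p under 0.05 (edgeR). With the replicate number as a block in edgeR 0 of the 3 were called as well, with adjusted p of 0.0911 for COA-like2, 0.363 for ZF-C3H11 and 0.825 for Testican2-like. The Astroides gene of COA-like2 (STRG.21214) was at 849 and 762 CPM in aboral, 1005 and 819 CPM in uncut and 1054 and 1173 CPM in oral libraries, a log2 difference of -0.43 ± 0.17 with an adjusted p of 0.233. The Astroides gene of ZF-C3H11 (STRG.10901) differed by -0.22 ± 0.15 (adjusted p = 0.563), and its uncut libraries held both the highest and the lowest level of the 6. The Astroides gene of Testican2-like (STRG.30766) differed by 0.05 ± 0.14 (adjusted p = 0.919).

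In the fit without an Astroides block, none of the 3 gastroderm pairs passed the test of the difference between the corals, although the Pocillopora genes were called and the Astroides genes were not. For COA-like2 the Astroides change minus the Pocillopora change was 0.85 ± 0.32 on the log2 scale, with an adjusted p of 0.0632 in edgeR, and it ranged from 0.0267 to 0.298 over the 12 alternatives. For ZF-C3H11 it was 0.48 ± 0.29, with an adjusted p of 0.217 and a 95% interval from -0.18 to 1.13. For Testican2-like it was 0.75 ± 0.28, with an adjusted p of 0.0631. With the Astroides replicate number as a block Testican2-like passed, at 0.75 ± 0.23 with an adjusted p of 0.0453, while COA-like2 was at 0.0698 and ZF-C3H11 at 0.184. All 3 differences had the same sign, with the smaller oral bias in Astroides.

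**Figure D2:**
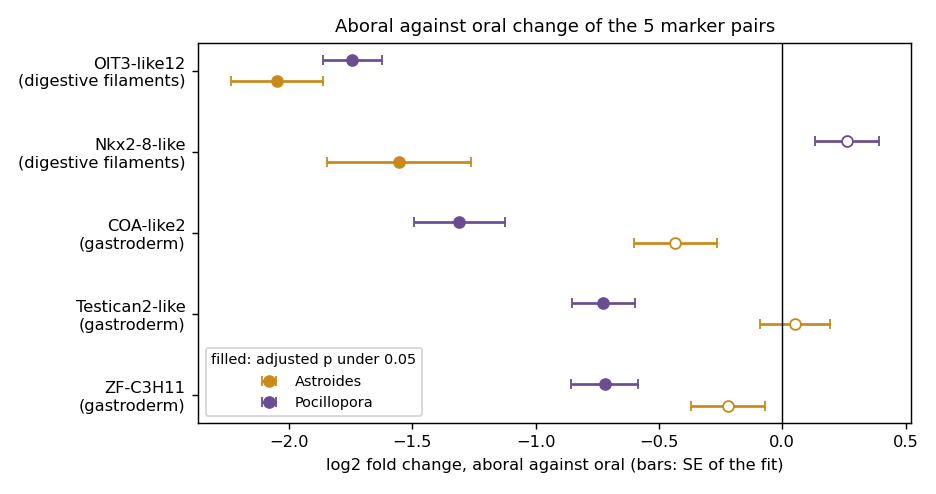
Fitted log2 fold change of aboral against oral ends for the 5 pairs of digestive filament and gastroderm markers, in Astroides and in Pocillopora. Points are edgeR estimates, bars are 1 SE on each side, and filled points passed the adjusted threshold of 0.05. OIT3-like12 lies left of -1.5 in both corals, and Nkx2-8-like lies on either side of 0.

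Over the whole list of digestive filament and gastroderm markers, 2 of 5 were called lower in Astroides aboral ends and 4 of 5 in Pocillopora. Of all genes tested, 3.51% in Astroides and 4.22% in Pocillopora were called lower. The markers called were the members and, in Pocillopora, also Testican2-like. The median log2 difference was -0.43 in Astroides and -0.73 in Pocillopora, beside 0.004 and -0.03 over all genes tested. Among the other cell classes in the same table, HFRIamide was left out because its row could not be placed with certainty. ALK-like was counted as gland mucous, as in the study's text. Markers of these other classes were more often called on the other side. Of 27, 11 were called higher and 2 lower in Astroides aboral ends, with a median of 0.51, where 3.47% of all genes were called higher. In Pocillopora 9 were called higher and 1 lower, with a median of 0.54, where 3.82% of all genes were called higher. The 4 markers of apical cells, an aboral class of the study's single-cell data, were all called higher in Astroides and 3 of them in Pocillopora. Of the neurosecretory markers, 3 were called higher in Astroides and 2 in Pocillopora, and of the gland mucous markers 2 and 3. The study named these classes aboral with the help of these same libraries, so the direction of their markers is not independent evidence. Of the epidermal, specialized epidermis and secretory markers, 0 were called higher in either coral. With the replicate number as a block, 13 of the 27 were called higher and 4 lower in Astroides. The markers called thus differed between the same libraries as the members, mostly in the opposite direction, and their part in the members' differences was not tested.

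No member was called between the parent colonies. The libraries of a colony are its aboral and its oral pool. The p-values and intervals of C5 against C3, here and below, thus rest on how far the colony difference varied between the ends. The spread between pools of the same colony and end was not measured, so differences between single pools cannot be told apart from differences between colonies. C5 against C3, OIT3-like12 (XP_027046940) differed by -0.30 ± 0.12 on the log2 scale, with an adjusted p of 0.134 in edgeR and a 95% interval that ended at -0.002. The C5 level was 0.834 times the C3 level in aboral and 0.908 times in oral ends. COA-like2 (XP_027059036) differed by 0.05 ± 0.18 (adjusted p = 0.857), with an interval from -0.41 to 0.51, and its C5 level was 1.31 times the C3 level in aboral but 0.949 times in oral ends. ZF-C3H11 (XP_027055412) differed by -0.11 ± 0.14 (adjusted p = 0.606), with an interval from -0.45 to 0.24. Of the 3 members 0 were called by edgeR and 0 by DESeq2, with 1 at an unadjusted p under 0.05 (edgeR), while edgeR called 19.2% of all Pocillopora genes between the colonies. The 2 markers of specialized epidermis were both called higher in C5, where 9.35% of all genes were, with a median of 3.99 on the log2 scale. Of these, XP_027057795 had 1 and 3 counts in the aboral and oral libraries of C3, and 46 and 73 in those of C5. Its size of change, and so the median, is uncertain.

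OIT3-like12 belongs to the genes with a zona pellucida domain that the study listed among those differing between the ends of these libraries, so their direction is not independent evidence. In the study's annotation STRG.21702 carries a zona pellucida domain with a coagulation factor Xa inhibitory site and a signal peptide. All 4 such genes listed in Astroides were called lower in aboral ends, the member included, and 3 of 4 in Pocillopora. STRG.576 was at 0.667 and 0.297 CPM in aboral, 6.70 and 8.92 CPM in uncut and 12.4 and 14.9 CPM in oral libraries, a log2 difference of -4.78 ± 0.39 with an adjusted p of 0.00105 in edgeR. STRG.18872 differed by -2.19 ± 0.23 (adjusted p = 0.00301). Its Pocillopora counterpart XP_027036186 differed by -0.90 ± 0.20 and did not pass, with an adjusted p of 0.0618. The 2 changes differed by -1.31 on the log2 scale, with an adjusted p of 0.0215 in edgeR over the pairs, of which 43.3% were called.

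STRG.21703 has an annotation like that of STRG.21702 and followed it closely. It was at 16.9 and 20.8 CPM in aboral, 40.0 and 44.7 CPM in uncut and 72.8 and 97.1 CPM in oral libraries, a log2 difference of -2.14 ± 0.18. The count of STRG.21702 was 0.756 to 0.866 times that of STRG.21703 in all 6 libraries. In Pocillopora the counterpart XP_027046946 was at 26.4 and 36.9 CPM in aboral and 89.8 and 115.9 CPM in oral ends, and differed by -1.70 ± 0.13. There the ratio of OIT3-like12 (XP_027046940) to XP_027046946 split by colony and not by end, at 1.76 in aboral and 1.68 in oral ends of C3 and 1.05 and 1.18 in those of C5. The gene count mode of STAR, which the authors used, leaves out reads that map to several places, so reads from any stretch that 2 similar genes share are missing from both.

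XP_027043000, a further zona pellucida domain gene of Pocillopora, was found in the libraries of 1 colony. It had 328 counts in the aboral and 1543 in the oral library of colony C3, and 0 and 1 count in those of colony C5. Over both ends its share of the counts was 1870 times as high in C3, with a 95% exact interval from 335 to 73800 that covers counting error only, without the spread between pools. The ratio rests on a single count in C5, and 1 pool of each end stands for each colony. Its call as lower in aboral ends, at an adjusted p of 0.0109 in edgeR, thus rests on colony C3, where the oral level was 5.77 times the aboral level.

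Trypsins are digestive proteases that gland cells secrete. A list of trypsin domain genes was taken from the same lists of the study, with the same limit on their direction. The domain alone does not show that these genes are digestive or expressed in gland cells. Of 5 in Pocillopora, 4 were called lower in aboral ends, from -2.91 (XP_027046893) to -1.87 (XP_027039790) on the log2 scale. OIT3-like12 was at -1.74 on the same scale. The remaining gene, XP_027040367, went the other way. It was at 121.3 and 50.7 CPM in aboral and 23.3 and 16.5 CPM in oral ends of colonies C3 and C5, a difference of 2.02 ± 0.20 with an adjusted p of 0.0125 in edgeR. Unlike the members, 4 of these 5 genes were called lower in colony C5 than in C3, where 9.89% of all genes were, with log2 differences from -1.10 (XP_027046893) to -0.56 (XP_027039790). In Astroides STRG.30267 was at 31.7 and 25.5 CPM in aboral, 56.7 and 46.5 CPM in uncut and 83.0 and 84.4 CPM in oral libraries. It differed by -1.52 ± 0.16 (adjusted p = 0.00311 in edgeR), and its change was 1.37 smaller in size than that of XP_027046893, with an adjusted p of 0.0115. The other Astroides gene of this list, STRG.5893, had 0 to 2 counts per library and was not tested.

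**Figure D3:**
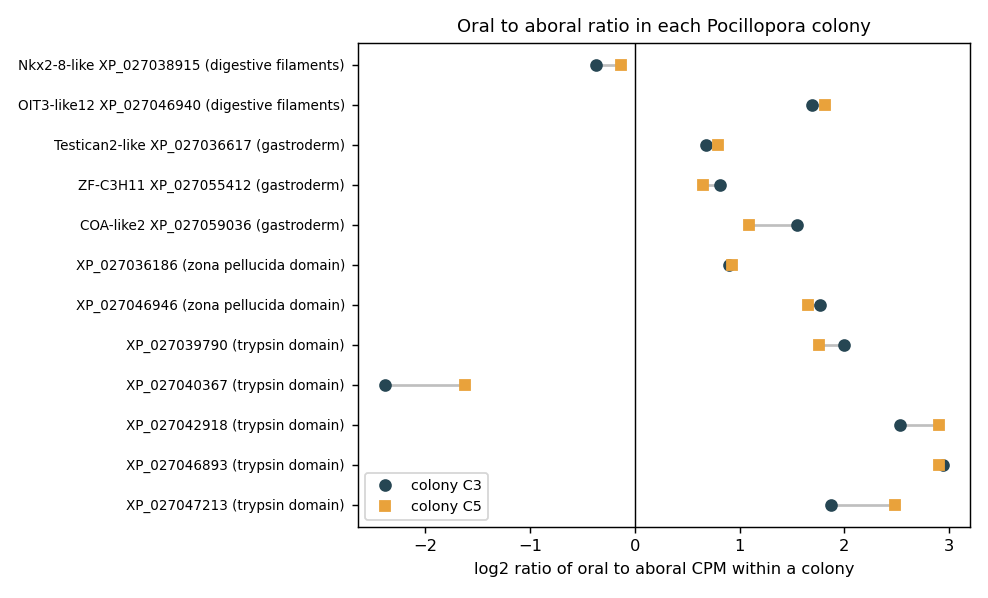
Log2 ratio of oral to aboral CPM within colony C3 (circles) and within colony C5 (squares) for 12 Pocillopora genes, namely the 5 digestive filament and gastroderm markers and zona pellucida and trypsin domain genes. Every gene has both colonies on the same side of 0, and Nkx2-8-like and XP_027040367 lie left of it. XP_027043000 is left out because its aboral count in C5 was 0.

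The genes with profiles most like those of the members were sought by the root mean square difference between log2(CPM + 1) profiles, each centred on its own mean, among genes with a mean of at least 10 CPM. For Astroides OIT3-like12, over 6 libraries and 10473 genes, the nearest was STRG.5549, which carries a transcription factor AP-2 domain, at 0.066 log2 units. Its level was 76.6 and 82.4 CPM in aboral, 177 and 186 CPM in uncut and 301 and 378 CPM in oral libraries. The next were the zona pellucida domain gene STRG.21703 at 0.0718 and STRG.12803, with a von Willebrand factor type A and a WAP-type domain, at 0.081. For Astroides Nkx2-8-like the nearest were STRG.14098 at 0.0935, STRG.14014 at 0.0979 and STRG.21460 at 0.109, none of them annotated in the sources used here. All shared the higher level of Nkx2-8-like in replicate 1 of each group. The search used these same libraries, so a shared replicate pattern was built into the choice.

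**Figure D4:**
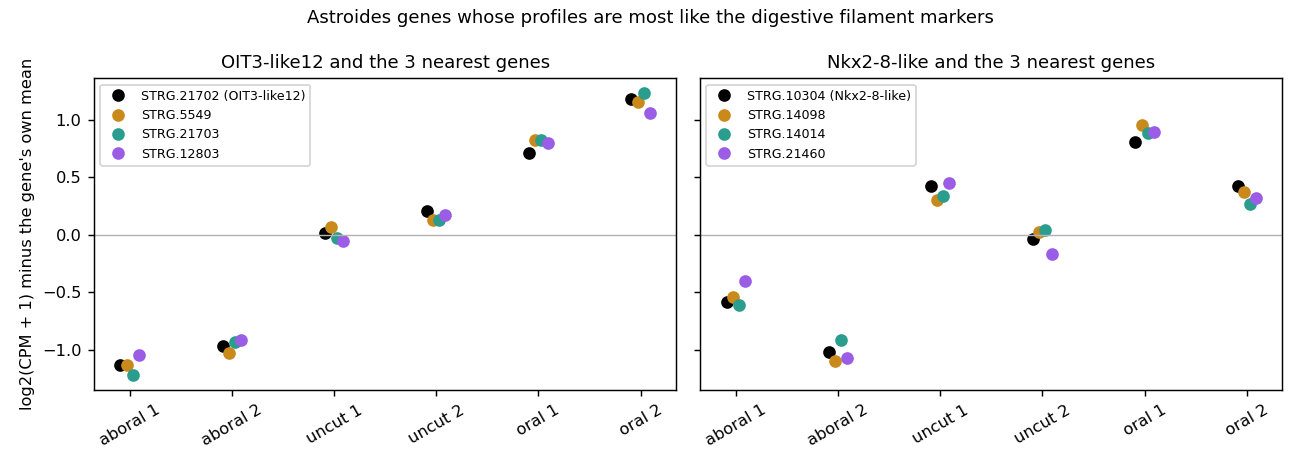
Profiles of the 2 Astroides members and of the 3 genes nearest to each over the 6 Astroides libraries, as log2(CPM + 1) minus the gene's own mean. Each point is 1 gene in 1 library. OIT3-like12 and its neighbours are higher in replicate 2 of each group, and Nkx2-8-like and its neighbours are higher in replicate 1. The neighbours were chosen for likeness over these same libraries.

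In Pocillopora, where 4 libraries and 10744 genes were compared, the nearest genes carried no annotation in the sources used here. They were XP_027049437 for OIT3-like12 at 0.0782 log2 units, XP_027042016 for COA-like2 at 0.0183 and XP_027046431 for ZF-C3H11 at 0.0247. For COA-like2 the nearest gene at a similar CPM was the next in order, XP_027048252, at 0.0428. It was at 1379 and 1743 CPM in aboral and 3715 and 3706 CPM in oral ends of colonies C3 and C5. Likeness over 4 libraries is a description.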

How the data were processed

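Each library had 1 deposited table of raw read counts per gene model, for which the authors used STAR 2.7.11a in its gene count mode. Astroides reads were mapped to an assembly of the authors and Pocillopora acuta reads to the genome of Pocillopora damicornis, and the strand setting is not given in the sources used here. The tables hold no names, so names and domains came from the study's lists, matched on identifier. The 6 Clytia libraries were not analysed here, and no sequence was used.

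The tests used edgeR 4.0.16 (limma 3.58.1, R 4.3.3): filterByExpr by group, TMM factors, glmQLFit in legacy mode and two-sided glmQLFTest, with Benjamini-Hochberg adjustment over all genes tested (21254 in Astroides, 17164 in Pocillopora) and a threshold of 0.05. The Astroides fit held 6 libraries with no block. The Pocillopora fit held 4 libraries with the colony as a block. Between the corals, the species by end interaction was fitted on 393 tested of 428 ortholog pairs.

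Astroides libraries with the same number come from 1 biological replicate and so form pairs, because such a replicate in the study's methods comprises cut and whole larvae. Their deviations correlated across genes at 0.643 between the ends, and uncut larvae correlated at 0.212 with aboral and 0.2 with oral ends. In Pocillopora, where the number is the colony, the correlation was 0.828. The main Astroides values leave this pairing out, and blocked fits are an alternative. They are given where they change the call of a member or of a gastroderm marker. They are also given for STRG.10304 aboral against oral, and otherwise in the closing section.

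The members and lists were chosen with earlier results of these data known. Named genes were the members, the other digestive filament and gastroderm markers, zona pellucida and trypsin domain genes of the study's lists, and the 3 genes nearest in profile to each member. XP_027048252 is given from these for its level, and it was singled out after its values were seen. For Pocillopora, otherwise only the nearest is named. Alternatives were DESeq2 1.42.0, RLE factors, library totals, no filter, the newer quasi-likelihood mode, the block, the ends alone and each library left out. On simulated data the Astroides and Pocillopora tests recovered 61 and 60 of 100 genes changed 2-fold, and 100 of 100 changed 4-fold. They made 10 and 6 false calls. The simulation gave all genes the same assumed dispersion, not estimated from these data, and changed only genes above a minimum level. It held a colony effect in Pocillopora but no replicate effect in Astroides, so recovery in the real data can differ.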

Additional observations from a re-analysis of the deposited data

Results flagged for a closer look

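The Nkx2-8-like pair differed between the corals in its aboral against oral change, by -1.84 ± 0.41 on the log2 scale (Astroides minus Pocillopora, adjusted p = 0.00697 in edgeR's interaction test). In this test 43.3% of the 393 pairs were called different, and the pairs came partly from lists made on these libraries. The oral level of the Astroides gene was above the aboral level in 2 of 2 replicates, and that of the Pocillopora gene was below it in 2 of 2 colonies.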

How the results depend on the processing

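No result changed direction in a called comparison. With the Astroides replicate number as a block, 1312 genes were called higher and 1299 lower in aboral ends in place of 738 and 747, and 165 higher and 35 lower in uncut larvae against the mean of the ends in place of 44 and 3. Under this block the aboral against oral calls of the 5 digestive filament and gastroderm, 4 zona pellucida domain and 1 tested trypsin domain genes were as without it. Uncut against aboral, STRG.21703 (adjusted p = 0.00468) and STRG.30267 (0.0154) were called too. Uncut against oral, STRG.21703 (0.00402), STRG.18872 (0.044) and STRG.30267 (0.0263) were. Among markers of other classes the block changed 4 aboral against oral calls. STRG.576 was called higher in uncut larvae against the mean of the ends (0.0471), which is a mean on the log2 scale. On mean CPM the uncut larvae stood at 0.445 for STRG.576, between oral at 0 and aboral at 1. For that uncut comparison DESeq2 called 162 higher and 46 lower, RLE factors 1 lower and library totals 0 lower. Uncut against aboral, the block gave 444 higher and 268 lower and DESeq2 407 and 238, in place of 96 and 20. Uncut against oral, they gave 438 and 172, and 427 and 178, in place of 201 and 15. Without a block for the colony, the Pocillopora differences were -1.74 for XP_027046940 (adjusted p = 0.252), -1.30 for XP_027059036 (0.317) and -0.72 for XP_027055412 (0.371), with 0 genes called higher and 0 lower. With RLE factors XP_027055412 was at -0.72 (0.0511). The difference between corals for COA-like2, 0.85, passed in the newer quasi-likelihood mode (0.0471) and in DESeq2 (0.0351). The cause of these changes was not tested.

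Leaving out 1 library, the aboral against oral difference ranged from -2.26 to -1.82 for STRG.21702 and from -1.86 to -1.33 for STRG.10304, and the genes called from 289 to 558 higher and from 231 to 566 lower, in both cases lowest without aboral replicate 2. Uncut larvae against the mean of the ends had 7 to 32 genes higher and 0 to 2 lower. In Pocillopora, where a left-out library leaves no test, the range was -1.81 to -1.69 for XP_027046940, -1.55 to -1.09 for XP_027059036 and -0.82 to -0.65 for XP_027055412. The colony difference ranged from -0.26 to -0.14 for XP_027046940, from -0.076 to 0.39 for XP_027059036 and from -0.091 to 0.078 for XP_027055412, with -0.14 for XP_027046940 within oral ends and 0.39 for XP_027059036 and 0.078 for XP_027055412 within aboral ends. The COA-like2 difference between corals ranged from 0.58 to 1.13 and passed without colony C5 at either end (adjusted p = 0.0281 and 0.0267). The difference between corals called 75 to 128 pairs higher and 50 to 86 lower.

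With 2 pools a group, 2-fold changes simulated at an assumed dispersion were often missed. A missing call for a marker is thus not evidence of equal levels. Counting error was small for most members. The lowest count of a member was 106.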
